A study of Homo sapiens with 4 samples.

Results

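The 10 genes described here encode the enzymes and core subunits that write, copy and remove DNA methylation or deposit the Polycomb mark on histone H3. They were chosen by name: DNMT1, UHRF1, DNMT3A, DNMT3B, TET1, TET2, TET3, EZH2, SUZ12 and EED. All 10 had at least 1 probeset among the 19775 genes of the array, and together they had 19 usable probesets of 54613 in the table. Where a gene had several, the one with the highest mean stands for it, and the others are given beside it.

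Messenger RNA was measured on 4 arrays of HuH7, a human hepatocellular carcinoma line. The parental cells (F0) had 2 arrays, F0 (1) and F0 (2). F6 and F12 had 1 array each and came from tumors in immunodeficient NOD/SCID mice dosed with JNJ-28841072, an inhibitor of aurora kinases and of the receptors for vascular endothelial growth factor; resistant tumors were regrafted 6 times for F6 and 12 times for F12. The phenotype field of F6 and F12 names sorafenib resistance instead and calls each a subclone, and this conflict over the drug could not be resolved from the labels. RNA came from tissue specimens per the labels, which do not say whether the F0 RNA came from culture or from untreated tumors, nor whether the F0 arrays were separate cultures or animals. Treatment, growth in mice and the number of regrafts therefore cannot be told apart. The series title names epigenetic alterations in acquired resistance, and that is the question these genes bear on.

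DNA methylation is put on unmethylated CpG sites by DNMT3A and DNMT3B and copied to the new strand after replication by DNMT1. UHRF1 binds hemimethylated DNA behind the replication fork and brings DNMT1 to it. The TET enzymes oxidize methylated cytosine, the opening step of its removal. Polycomb repressive complex PRC2, built on EZH2, SUZ12 and EED, methylates lysine on the tail of histone H3 and keeps developmental genes silent; EZH2 and UHRF1 are often more abundant in liver tumors than in normal liver.

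Values are log2 signals, and 1 unit equals a 2-fold difference. A signal below 6 is taken as close to background, where a fold can only be read as a bound. The F0 arrays differed widely: F0 (2) was at least 2-fold above F0 (1) for 25.0% of genes and at least 2-fold below it for 34.1%. Hepatocyte marker genes were at or above 6 for 8 or 9 of the 9 measured on each array. Of the markers of cell types a tumor could hold, 1 to 3 of 8 endothelial, 1 of 8 fibroblast and 1 to 3 of 7 leukocyte genes reached 6 on an array. The fibroblast gene was PDGFRB on F0 (1), at 6.18. It was PDGFRA on the others, at 8.71 on F0 (2), 6.16 on F6 and 8.10 on F12. The summed linear signal of the fibroblast genes was 260 and 560 on the F0 arrays, 238 on F6 and 399 on F12. The leukocyte genes PTPRC, at 2.41 to 3.28, and MS4A1, at 2.22 to 2.75, were dim. LYZ was the brightest of the list, at 8.34 and 11.98 on the F0 arrays, 10.99 on F6 and 9.20 on F12. The summed linear signal of the leukocyte genes was 633 and 4201 on the F0 arrays, 2270 on F6 and 721 on F12. LYZ weighed most in this sum, and every other leukocyte gene measured was lower on F0 (2) than on F0 (1). CD14 was at least 2-fold below both F0 arrays in F12 (5.16 against 6.89 and 6.22), where 1.37% of all genes were. Of the 9 hepatocyte markers, 2 were at least 2-fold above both in F6, where 0.576% of all genes were. They were SERPINA1 (13.82 against 12.43 and 11.20) and AHSG (11.29 against 9.91 and 9.45). FGB on F6 was slightly below both (8.10 against 8.35 and 11.07). ALB, AFP, APOA1, APOB, TTR and TF on F6 lay between the F0 arrays. In such bulk RNA, fewer cells of a type and less RNA per cell cannot be told apart.

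UHRF1 was the 1 gene of the 10 that lay at least 2-fold outside the parental pair, and it did so in F12. On its 1 usable probeset it read 10.22 on F0 (1), 9.61 on F0 (2), 10.23 on F6 and 8.16 on F12. Thus F12 was 2.73-fold below the lower parental array and 4.18-fold below F6, while F6 was level with F0 (1). Its partner DNMT1 read 8.44, 10.11, 9.69 and 10.09 in the same order. F12 was level with F0 (2) for DNMT1, and both resistant arrays lay between the parental ones. No other member was 2-fold beyond both F0 arrays in F12, and none was in F6. Over all genes, 1.37% were at least 2-fold below both F0 arrays in F12 and 1.93% above both, against 0.561% and 0.576% in F6. The rule is harder to meet where the F0 arrays differ widely, as they did by at least 2-fold for 7 of the 10 genes. With 1 gene of 10, the members' count cannot be set apart from these shares. These counts rested on having both parental arrays. Against F0 (1) alone, 6 members were at least 2-fold higher in F12 and 5 in F6, beside 25.0% and 17.1% of all genes, and UHRF1 was the 1 member lower, in F12, beside 32.0%. Against F0 (2) alone, UHRF1 and TET2 were lower in F12, beside 3.78% of all genes. In F6, 6 members were then lower and DNMT3B higher, beside 20.3% and 15.8%.

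**Figure D1:**
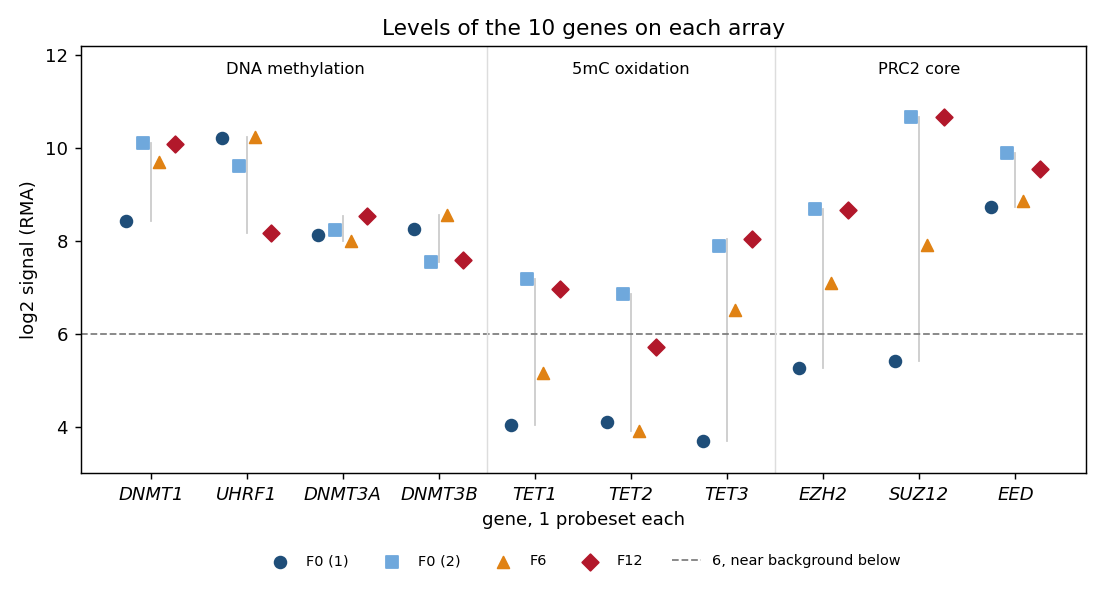
Log2 signal of each of the 10 genes (1 probeset each) on the 4 arrays, with marker shape and colour for the array, a grey line for the range and a dashed line at 6. UHRF1 is lowest on F12 at 8.16, whereas EZH2, SUZ12, TET1 and TET3 are lowest on F0 (1) and near equal on F0 (2) and F12.

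The de novo methyltransferases, like UHRF1, differed by less than 2-fold between the parental arrays. DNMT3A read 8.13 on F0 (1), 8.24 on F0 (2), 8.0 on F6 and 8.53 on F12, a range of 0.53. A second DNMT3A probeset read 7.42, 7.55, 7.24 and 7.65, with the same order of arrays, F6 lowest and F12 highest. The third was dim, at 4.73, 3.54, 4.47 and 3.78. DNMT3B read 8.26, 7.55, 8.56 and 7.59. It was 1.96-fold lower on F12 than on F6, but F12 was level with F0 (2), so the parental pair spanned much of this difference.

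The TET genes were dim on F0 (1) and clearer on F0 (2). TET1 read 4.04 on F0 (1), 7.18 on F0 (2), 5.15 on F6 and 6.96 on F12. TET3 read 3.69, 7.88, 6.52 and 8.04, so that F12 slightly exceeded F0 (2) and F6 lay between the parental arrays. TET2 read 4.11, 6.86, 3.90 and 5.72. TET2 was the TET gene whose F12 value did not come near F0 (2), at 1.14 below it, and it was near background on the other 3 arrays. The other probesets of TET2, both dim, also read lower on F12 than on F0 (2), at 4.59 against 5.54 and 4.86 against 5.21. The other TET3 probesets, at 3.94 to 5.37, did not follow the brighter one: one of them read 5.37 on F0 (1) and 4.06 on F12.

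The brightest probeset of each PRC2 core gene was lowest on F0 (1). EZH2, the catalytic subunit, read 5.26 on F0 (1), 8.70 on F0 (2), 7.09 on F6 and 8.67 on F12. SUZ12, which holds the complex together, read 5.42, 10.67, 7.91 and 10.68. EED, which binds the finished mark, read 8.73, 9.89, 8.87 and 9.55. Its other probeset was near background at 2.59, 2.62, 2.11 and 3.16. F12 was within 0.03 of F0 (2) for EZH2 and SUZ12 and 0.34 below it for EED. F6 lay between the parental arrays for all 3. Against F0 (1), F12 would be 10.6-fold higher for EZH2 and 38.3-fold for SUZ12, and against F0 (2) 1.02-fold lower and 1.01-fold higher. F0 (1) was near background for both genes, so the folds against it are limits. The 2 other SUZ12 probesets stayed between 2.66 and 4.78 on all arrays. A SUZ12 probeset shared with the pseudogene SUZ12P1, left out by the rule, read 7.45, 9.28, 7.16 and 8.58, with F6 below both parental arrays.

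**Figure D2:**
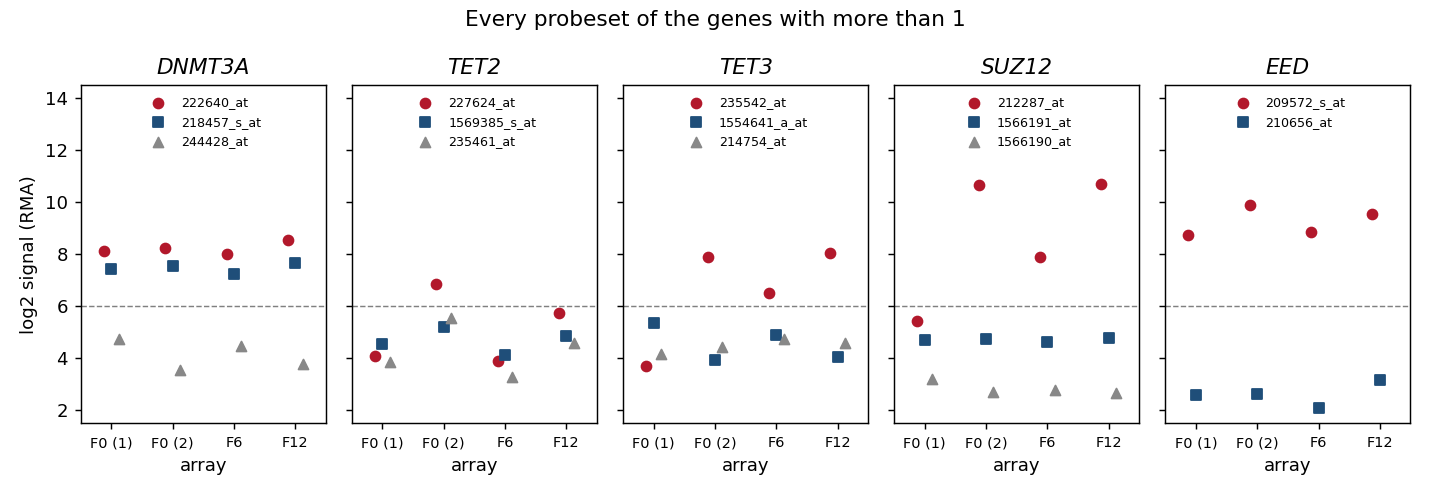
Log2 signal of every usable probeset of the 5 genes that had more than 1, by array, with a dashed line at 6. The 2 brighter DNMT3A probesets keep the same order of arrays, while the dim probesets of SUZ12 and TET3 do not follow the bright one.

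The bases before the start of transcription are shown for UHRF1, the gene low on F12, for its partner DNMT1, and for EZH2 and SUZ12, which had the same order of F0 (1), F6 and F0 (2). Each is the 250 bases before the most upstream start held for the gene in the promoter set used (GRCh38.p14), read 5′ to 3′ on the gene's strand. Other starts of a gene may lie further upstream, and the counts below cover this window only. Capitals mark a match to an E2F-type motif, E2F being the factor family that drives genes of DNA replication. The motifs searched on both strands were TTTCCCGC, TTTGGCGC, TTTCGCGC and TTTGCCGC.
UHRF1, chr19:4909251-4909500, plus strand: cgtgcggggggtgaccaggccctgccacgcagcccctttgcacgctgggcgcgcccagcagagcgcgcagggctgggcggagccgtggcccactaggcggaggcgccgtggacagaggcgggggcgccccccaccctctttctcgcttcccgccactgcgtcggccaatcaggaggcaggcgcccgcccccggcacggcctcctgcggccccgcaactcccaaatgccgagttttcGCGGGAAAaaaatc
DNMT1, chr19:10194954-10195203, minus strand: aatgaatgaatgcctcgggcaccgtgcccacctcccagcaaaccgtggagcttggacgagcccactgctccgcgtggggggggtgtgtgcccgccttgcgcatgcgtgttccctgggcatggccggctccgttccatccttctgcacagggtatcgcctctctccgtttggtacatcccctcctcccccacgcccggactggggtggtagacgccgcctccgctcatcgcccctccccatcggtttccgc
EZH2, chr7:148884292-148884541, minus strand: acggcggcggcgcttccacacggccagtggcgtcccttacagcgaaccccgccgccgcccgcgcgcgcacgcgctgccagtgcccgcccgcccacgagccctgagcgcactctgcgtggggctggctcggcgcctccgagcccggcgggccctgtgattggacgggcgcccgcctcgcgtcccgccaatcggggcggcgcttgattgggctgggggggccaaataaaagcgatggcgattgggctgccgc
SUZ12, chr17:31936757-31937006, plus strand: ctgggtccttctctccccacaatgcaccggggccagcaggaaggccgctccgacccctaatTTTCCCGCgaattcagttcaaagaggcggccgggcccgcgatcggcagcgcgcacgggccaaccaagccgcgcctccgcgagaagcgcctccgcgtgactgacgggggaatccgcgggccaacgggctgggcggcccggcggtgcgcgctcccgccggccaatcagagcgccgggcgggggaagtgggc

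UHRF1 held 1 such match, TTTCCCGC on the opposite strand, beginning 14 bases before the start. SUZ12 held 1 on its own strand, beginning 189 bases before the start. The other 8 genes held none in this window, against 2.78% of 27305 promoters of the same length that held at least 1. The motif CCAAT, bound by NF-Y, was found in 5 of the 10 (DNMT3B, UHRF1, EZH2, SUZ12 and EED), with 4 matches in EZH2, against 33.0% of all promoters. The number of CpG dinucleotides was 28 in UHRF1, 21 in DNMT1, 38 in EZH2 and 34 in SUZ12. It ranged from 3 in DNMT3B to 38 in EZH2 over the 10 genes, with a median of 16.5 against 10 over all promoters. UHRF1 and SUZ12 shared the E2F-type match but not the pattern on the arrays, with SUZ12 level with F0 (2) on F12 and UHRF1 below it.

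The F0 pair set the scale of most differences. F0 (2) was at least 2-fold above F0 (1) for 7 of the 10 genes, all but UHRF1, DNMT3A and DNMT3B. It was at least 2-fold below F0 (1) for none. Over all genes, 25.0% were above and 34.1% below. For 6 of those 7, F12 was within 0.5 of F0 (2), and 74.5% of all 11680 genes with a 2-fold F0 difference were also that close. TET2 was the exception. F6 lay between the F0 arrays for 6 of the 7, again except TET2. A wide F0 difference makes such a place more likely, and its share among the 11680 genes was not counted. On a scale of 0 at F0 (1) and 1 at F0 (2), F6 stood at 0.75 for DNMT1, 0.68 for TET3, 0.53 for EZH2, 0.47 for SUZ12, 0.35 for TET1 and 0.12 for EED, so the genes did not share 1 position. Counted by any amount, F6 was above both F0 arrays for 2 of the 10 genes, below both for 2 and between them for 6, against 13.3%, 10.4% and 76.3% of all genes. F12 was above both for 3, below both for UHRF1 and between them for 6, against 19.5%, 30.4% and 50.1%, so the members' count below both was not above the background.

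A line fitted over all genes placed F6 at 0.411 and F12 at 0.963 on that scale. F0 (1) was subtracted on both sides of this fit, so its noise in part sets these positions, which are descriptive only. The values expected from this line were subtracted from each gene. UHRF1 then lay 1.48 and TET2 1.05 below expectation in F12, where 3.57% of genes were at least 1 below. In F6, TET2 lay 1.38 below and TET3 1.06 above, where 3.21% of genes were at least 1 below and 3.89% at least 1 above. TET2 was under 6 on both resistant arrays and on F0 (1), and TET3 was under 6 on F0 (1), so these distances are not exact. No gene was at least 1 above the line in F12 (3.2% of all genes were), and the widest of the remaining distances was 0.54, for DNMT3B in F6.

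**Figure D3:**
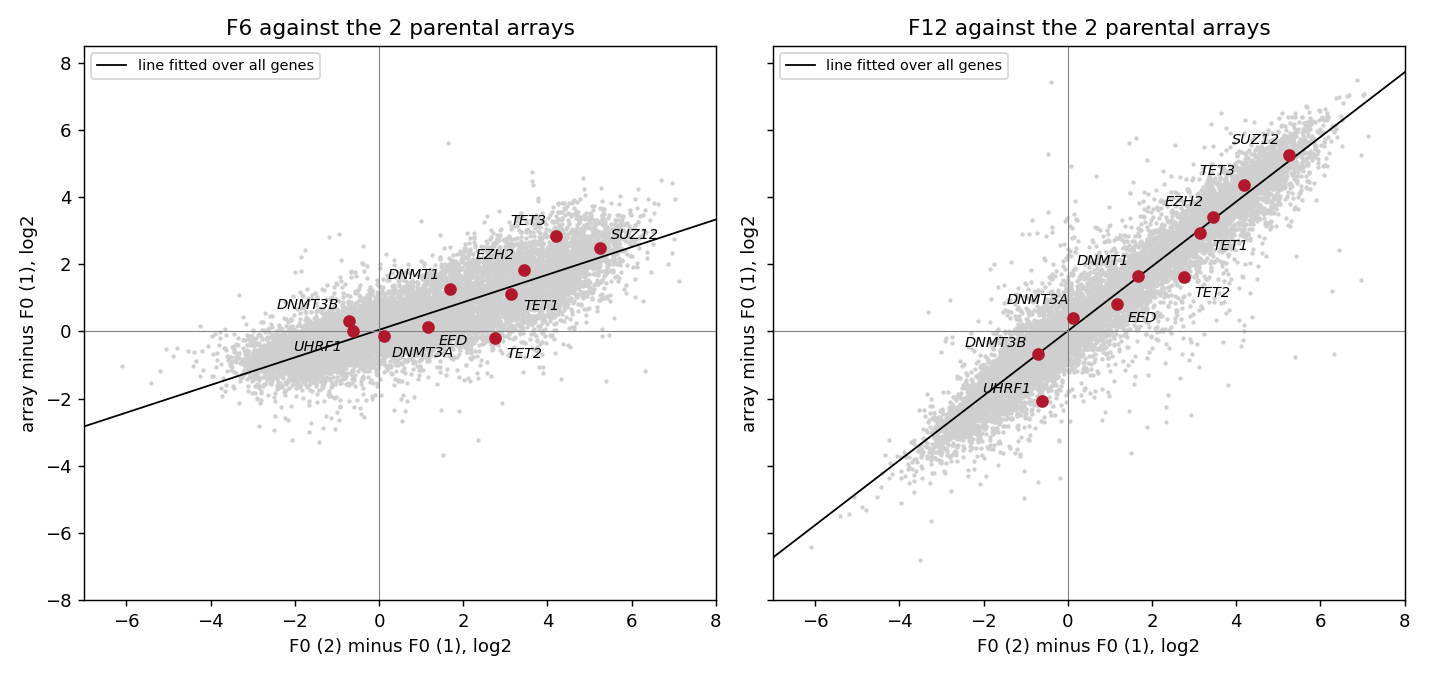
Each grey point is a gene, with the log2 difference of F0 (2) from F0 (1) across and that of F6 (left) or F12 (right) from F0 (1) upward; the 10 genes are red and the line is the fit over all genes. UHRF1 and TET2 lie below the line for F12, and the other 8 genes lie close to it.

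F6 against F0 asked what differed after the earlier rounds. The median of the 10 genes was 0.01 below the F0 mean, against a median of 0.06 above it over all genes, and it was 0.71 above F0 (1) and 1.19 below F0 (2). DNMT3B was highest on F6, 0.30 above F0 (1), and UHRF1 was 0.01 above it. DNMT3A and TET2 lay below both parental arrays, by 0.13 and 0.20 from the lower one, F0 (1). TET2 was near background on both F6 and F0 (1). The members' median in F12 was 0.58 above the F0 mean, at 1.64 above F0 (1) and 0.02 below F0 (2), and that of all genes was 0.24 below the F0 mean. F12 was at least 2-fold above F6 for TET1, TET2, TET3, EZH2 and SUZ12, as it was for 20.2% of genes. UHRF1 alone of the 10 was at least 2-fold below F6, as were 14.7% of genes. The F6, F12 and mean comparisons share the F0 arrays. For none of the 10 genes did F6 and F12 lie together above or together below both F0 arrays, whereas 3.96% of all genes had both resistant arrays above both F0 arrays and 4.53% below.

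limma fitted F0, F6 and F12 as groups, and in a separate fit F6 and F12 as 1 group. Each probeset's own error came from the F0 pair, and in the separate fit the difference between F6 and F12 also entered it. limma then drew each error toward a value pooled over all probesets, with 6.22 prior degrees of freedom in the first fit and 2.01 in the separate one. The intervals are therefore not a gene's own parental spread. For UHRF1 the SD of the F0 pair was 0.43. In each of the 4 comparisons 0.0% of the 54613 probesets passed an adjusted p of 0.05. Of the 76 limma tests on the members' 19 probesets, 0 had an unadjusted p under 0.05 and each adjusted p was 1. For UHRF1 the limma difference of F12 from F0 was -1.75 (SE 1.17, 95% interval -4.50 to 1.00, adjusted p = 1), and that of F12 from F6 was -2.06 (SE 1.35). For EZH2 the difference of F12 from F0 was 1.69 (SE 1.60, 95% interval -2.07 to 5.45, adjusted p = 1), and for SUZ12 it was 2.64 (SE 2.05). With intervals this wide, neither a change nor its absence is shown for any of the 10 genes. F6 and F12 had no replicate of their own, and across all probesets 34 to 137 per comparison had an unadjusted p under 0.05, fewer than the 2731 that chance would give, which leaves the p-values poorly calibrated.

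UHRF1 is transcribed mainly in dividing cells, and some genes of proliferation were also low on F12. Of the 25 proliferation and E2F target genes listed, 6 were at least 2-fold below both F0 arrays in F12 (RRM2, CCNB1, TK1, CDT1, MCM3 and MCM2), against 1.37% of all genes, and 0 in F6. Against F0 (1) alone 11 of the 25 were at least 2-fold lower in F12 and 8 higher (32.0% of all genes were lower), and against F0 (2) alone 15 were lower and 0 higher (3.78% of all genes were lower). The median of the list was 0.79 below the F0 mean in F12 and 0.30 above it in F6. RRM2, a subunit of ribonucleotide reductase, read 11.13 and 10.92 on the parental arrays, 11.73 on F6 and 7.91 on F12. MCM3, part of the replicative helicase, read 10.63, 10.36, 10.80 and 9.25. The summed linear signal of the 25 genes was 28951 and 30512 on the F0 arrays, 32070 on F6 and 13302 on F12. EZH2 and DNMT1, also known from dividing cells, were level with F0 (2) on F12, and PCNA, the sliding clamp, an example chosen after its values were seen, read 9.67, 11.49, 10.73 and 10.38. The part of proliferation in the UHRF1 value was not tested.

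**Figure D4:**
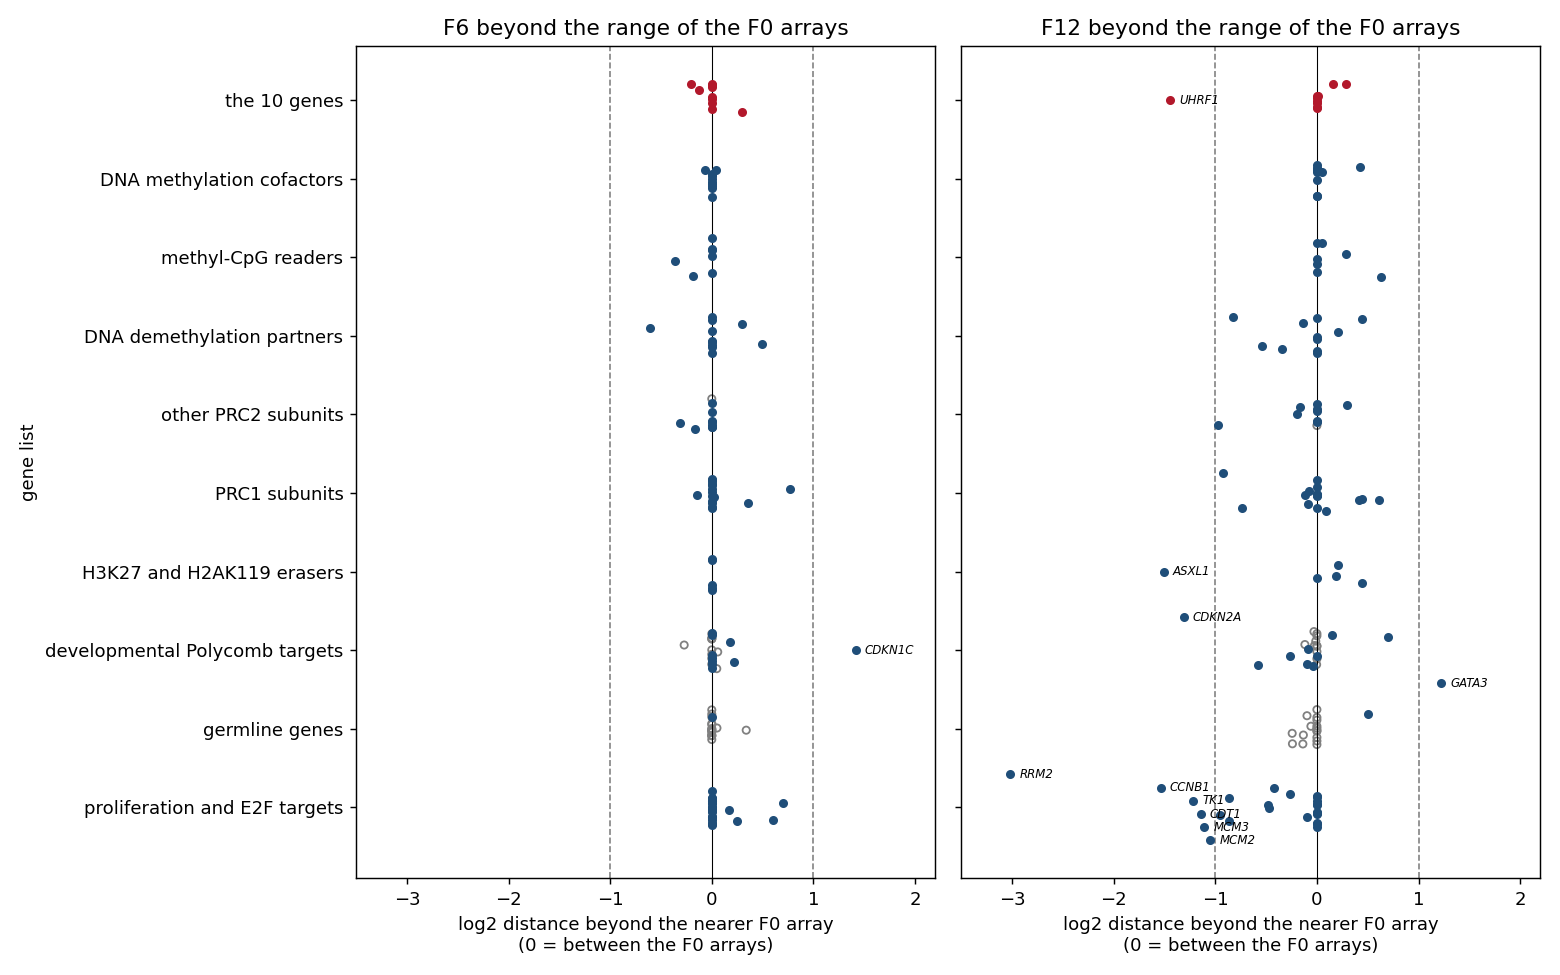
Log2 distance of F6 (left) and F12 (right) beyond the nearer F0 array for each gene of 10 lists, with 0 for genes between the F0 arrays, open circles for genes under 6 on all arrays and dashed lines at 2-fold. UHRF1 is the 1 red point past a dashed line, and the proliferation list holds 6 such genes in F12.

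Few other genes of the pathways were 2-fold beyond the parental range, though some, such as UHRF2 and PHF19 in F12, lay outside it by less. None of the 10 measured DNA methylation cofactors, 7 methyl-CpG readers, 11 DNA demethylation partners, 10 other PRC2 subunits and 16 PRC1 subunits was at least 2-fold beyond both F0 arrays in F6 or F12. Over all genes, 0.561% were below both and 0.576% above both in F6, and 1.37% and 1.93% in F12. Finding none in lists this short is therefore near the background. UHRF2, the relative of UHRF1, read 3.59, 8.74, 6.90 and 9.16, so its F12 value was above both parental arrays, unlike that of UHRF1. HELLS, a chromatin remodeller needed for DNA methylation, read 7.20, 11.28, 8.37 and 10.07. Among the accessory subunits of PRC2, MTF2 read 5.44, 10.32, 7.09 and 9.93, in the order that EZH2 and SUZ12 had over F0 (1), F6 and F0 (2). PHF19, another accessory subunit, went the other way at 10.64, 8.60, 9.90 and 7.62, with F12 0.98 below the lower parental array. EZH1, the second methyltransferase of PRC2, stayed between 6.06 and 6.60. UHRF2, HELLS, MTF2, PHF19 and EZH1 were picked as examples after their values were seen. Of the 5 measured erasers of the Polycomb marks, 1 was beyond, below both F0 arrays in F12, where 1.37% of all genes were. This was ASXL1, a partner of the histone H2A deubiquitinase BAP1, which read 10.64, 8.72, 9.98 and 7.21.

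Genes known to be held silent by these marks were mostly dim. Of 21 measured developmental Polycomb targets, 10 reached 6 on an array. CDKN1C was at least 2-fold above both F0 arrays in F6, where 0.576% of all genes were, and in F12 GATA3 was above and CDKN2A below, where 1.93% and 1.37% were. CDKN1C, a cell cycle inhibitor, read 5.26, 4.26, 6.68 and 5.96. GATA3, a developmental transcription factor, read 5.80, 6.67, 6.85 and 7.89. CDKN2A, which encodes the cell cycle inhibitor p16 and is a classical Polycomb target, read 8.35, 7.35, 8.29 and 6.04. The list median was 0.14 above the F0 mean in F6 and 0.32 below it in F12, against 0.06 above and 0.24 below over all genes. Of 17 measured germline genes that DNA methylation keeps silent in other cells, BRDT reached 6 (7.07 on F0 (2) and 7.57 on F12) and 0 were 2-fold beyond both F0 arrays.

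The genes whose centred values over the 4 arrays were most like those of EZH2, of 13688 compared, were ATRN, SPEN and MACIR, with mean absolute differences of 0.026, 0.031 and 0.033. Those most like DNMT1 were EIF3L, LAPTM4A and CDK2AP1, at 0.028, 0.034 and 0.051. With 4 arrays such likeness is a description only.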

How the data were processed

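Total RNA of 4 samples was amplified with a 3' transcription kit, labelled with biotin and hybridised to expression arrays, per the labels' protocols. The deposited values are log2 signals, 1 per probeset and array, made by the authors with RMA in the affy package, per the submitters' processing notes; no version, setting or genome build is named there. The 4 array medians lay between 4.67 and 4.85. Such values carry no depth, and precision is limited by how few arrays there are.

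Probesets were named through the platform annotation (41091 with 1 symbol, 1801 with several, 11721 with none). Of those with 1 symbol, 41037 matched RefSeq (GRCh38.p14) by Entrez number. Names ending in _x_at, which mark possible cross-hybridization, were left out where a gene had another probeset. The tests used limma 3.58.1 (R 4.3.3) over all probesets with Benjamini-Hochberg adjustment. Errors were moderated toward a value pooled over all probesets. Before moderation, 3 groups leave 1 residual degree of freedom, and F6 with F12 as 1 group leaves 2. The labels name no separate cultures, so a p-value here covers only sample-to-sample spread, which may be technical. The fit was also run on simulated arrays with independent noise of equal spread for all probesets. That run does not bear on how well the p-values here are calibrated. Beside the fit, genes at least 2-fold (log2 1) beyond both F0 arrays were counted.

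The members and lists were chosen with earlier results of these data known. List genes were named where they lay 2-fold beyond both F0 arrays and reached 6; the other named genes, such as PTPRC, LYZ, PCNA and BRDT, are examples chosen after their values were seen. Listed genes without a probeset of their own symbol were not analysed here. Alternatives covered the probeset choice, scaling, a filter on dim probesets, an intensity trend and each F0 array.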

Additional observations from a re-analysis of the deposited data

Results flagged for a closer look

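For UHRF1 and DNMT3A, F6 lay on 1 side of both parental arrays and F12 on the other. UHRF1 was 2.06 lower on F12 than on F6 (log2 difference -2.06), though F6 exceeded F0 (1) by only 0.01. DNMT3A was 0.53 higher on F12 than on F6, and its second bright probeset was 0.41 higher. The limma test of F12 against F6 gave an adjusted p of 1 for both genes.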

How the results depend on the processing

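The parental array used decided most values. Leaving out F0 (1) or F0 (2) put the members' median between -1.19 and 0.71 for F6 against F0, between -0.02 and 1.64 for F12, and between -0.64 and 1.08 for both resistant arrays together. Members at least 2-fold beyond the remaining F0 array then numbered 1 to 5 above and 0 to 6 below in F6, and 0 to 6 above and 1 to 2 below in F12, while the share of all genes so called rose too, to as much as 20.3% in F6 and 32.0% in F12. UHRF1 stayed below in F12 under median centring and quantile normalization. With either array left out it was at -2.06 to -1.45, which follows from the rule that F12 lay beyond both F0 arrays. UHRF1 had 1 usable probeset, so the mean of probesets could not alter its value. The mean of F6 and F12 against F0 changed sign between the F0 arrays for DNMT1 (-0.22 to 1.46), DNMT3B (-0.18 to 0.52), EED (-0.68 to 0.48), EZH2 (-0.82 to 2.62), SUZ12 (-1.37 to 3.87), TET1 (-1.12 to 2.02), TET2 (-2.05 to 0.71) and TET3 (-0.60 to 3.59). For SUZ12, F6 against F0 was 0.031 after quantile normalization in place of -0.14. Adjustment for position between the F0 arrays, added after the data were seen, gave a members' median of -0.19 for F12 against F6 in place of 1.10. In limma, 0 members passed the adjusted threshold under any alternative; over all features 1 passed for F12 against F0 with an intensity trend (ADH1B) and 1 with the mean of probesets (BEX1), neither a member. With 1 F0 array left out, the 3-group fit has no residual degrees of freedom, so its values carry no test. The fit of F6 and F12 as 1 group could still be tested, but on 1 F0 array, so its unadjusted p-values are not read here. No paired analysis was possible because F6 and F12 have 1 array each and no replicate number in the labels.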
